A study of Mus musculus with 6 samples.

Results

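The 10 genes of muscle calcium storage, release, uptake and entry, Ryr2, Trdn, Casq1, Casq2, Hrc, Atp2a2, Pln, Sln, Cacna1c and Slc8a1, were followed in bulk RNA sequencing of the mouse aortic root. They were chosen by name, with earlier results of these data known, and are 10 of the 23420 gene symbols in the table of counts. All 10 passed the filter on low counts and were among the 15096 genes tested. The aortic root is the first stretch of the aorta, where the aortic valve sits and the vessel wall meets heart muscle. In all, 3 roots came from Sost-/- mice and 3 from Sost+/+ mice. Sost encodes sclerostin, a secreted inhibitor of Wnt signalling. All mice had a C57Bl6/J background, were 12 months old and had eaten a high-cholesterol diet for 8 months, from an age of 4 months. The deletion is labelled as carried on both alleles. The labels do not give its extent, the sex of the mice or whether roots were pooled.

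In heart muscle, the action potential opens the L-type calcium channel of the surface membrane, and the calcium that enters opens ryanodine receptors of the sarcoplasmic reticulum, the calcium store of the cell. Calsequestrins hold calcium inside the store beside the release channel. Relaxation follows when a pump returns calcium to the store and the sodium-calcium exchanger moves it out of the cell, and small membrane peptides restrain the pump. Smooth muscle of the vessel wall uses the L-type channel, the pump, phospholamban and the exchanger as well, so a root can supply these transcripts from more than 1 muscle type.

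Counts summed to 38870673 to 41803775 in the 3 libraries labelled Sost-/- and to 37023586 to 48172863 in the 3 labelled Sost+/+. Sost itself had 2284, 1063 and 513 counts in replicates 1, 2 and 3 labelled Sost-/-, against 354, 621 and 274 in those labelled Sost+/+. The targeted gene was thus not lower where it is labelled as deleted, and counts per gene do not show which part of the gene the reads cover. Its log2 fold change was 1.56 (SE 0.48, edgeR adjusted p = 0.124), with overlap between the groups. Every direction below is for libraries labelled Sost-/- against libraries labelled Sost+/+. Markers of heart muscle and of smooth muscle differed between the same libraries. The sums of 10 skeletal muscle markers overlapped, at 810 to 1726 CPM in libraries labelled Sost-/- and 776 to 1947 CPM in those labelled Sost+/+. Nearly all of each sum was Acta1, at 801 to 1707 CPM and 765 to 1935 CPM in the same order. Heart muscle also uses Acta1, so these sums do not measure skeletal muscle alone. Of 10 cardiomyocyte markers, 10 had a negative log2 fold change, with a median of -0.47, and their summed level was 52414 to 67217 CPM (counts scaled to library size) in libraries labelled Sost-/- and 80192 to 86523 CPM in those labelled Sost+/+. A single marker among them, the muscle LIM protein gene Csrp3, passed edgeR's test, while 9 had an unadjusted p under 0.05 and DESeq2 called 8. Over all 15096 tested genes, edgeR called 2.18% higher and 0.371% lower, and 3056 had an unadjusted p under 0.05. DESeq2 called 7.61% of the genes it tested. Of 10 smooth muscle markers, 7 rose and 0 fell, with a median of 1.36, and their sum was 4088 to 6134 CPM against 1419 to 2748 CPM. Of 5 white adipocyte markers, 0 had a negative log2 fold change, with a median of 1.40, and their sums overlapped, at 523 to 1039 CPM in libraries labelled Sost-/- and 399 to 744 CPM in those labelled Sost+/+. Sums did not overlap for 5 fibroblast markers, at 3446 to 3972 CPM against 3025 to 3282 CPM, or for 4 Schwann cell markers, at 35.7 to 50.9 CPM against 27.6 to 33.3 CPM. Nor did they for 4 ventricular cardiomyocyte markers, at 7944 to 11338.5 CPM against 14436 to 17965 CPM. All 4 had a negative log2 fold change, with a median of -0.59. Of these 4, edgeR called 0 and DESeq2 called 3. The part that these marker differences have in the values below was not tested. In a bulk sample, fewer cells of a type and less RNA per cell cannot be told apart.

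Casq1 fell in the libraries labelled Sost-/-, and no other of the 10 genes passed the test. Of the 10, 9 had a negative log2 fold change, Sln being the exception, and the median over the 10 was -0.25. Over all tested genes, 48.7% of the values were negative and the median was 0.01. Calls are by edgeR's quasi-likelihood test at a Benjamini-Hochberg adjusted p of 0.05 over all tested genes, which called 2.55% of them, 2.18% higher and 0.371% lower. A share of 1 in 10 rests on a single gene. In 4 of the 10, Casq1, Casq2, Atp2a2 and Slc8a1, the 3 libraries of each group did not overlap in CPM, all lower where labelled Sost-/-. Such separation was found in 25.4% of tested genes, and in the lower direction in 11.1%. DESeq2 called 3 of the 10, Casq1, Casq2 and Hrc, all lower, where it called 7.61% of genes in all and 2.66% lower.

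**Figure D1:**
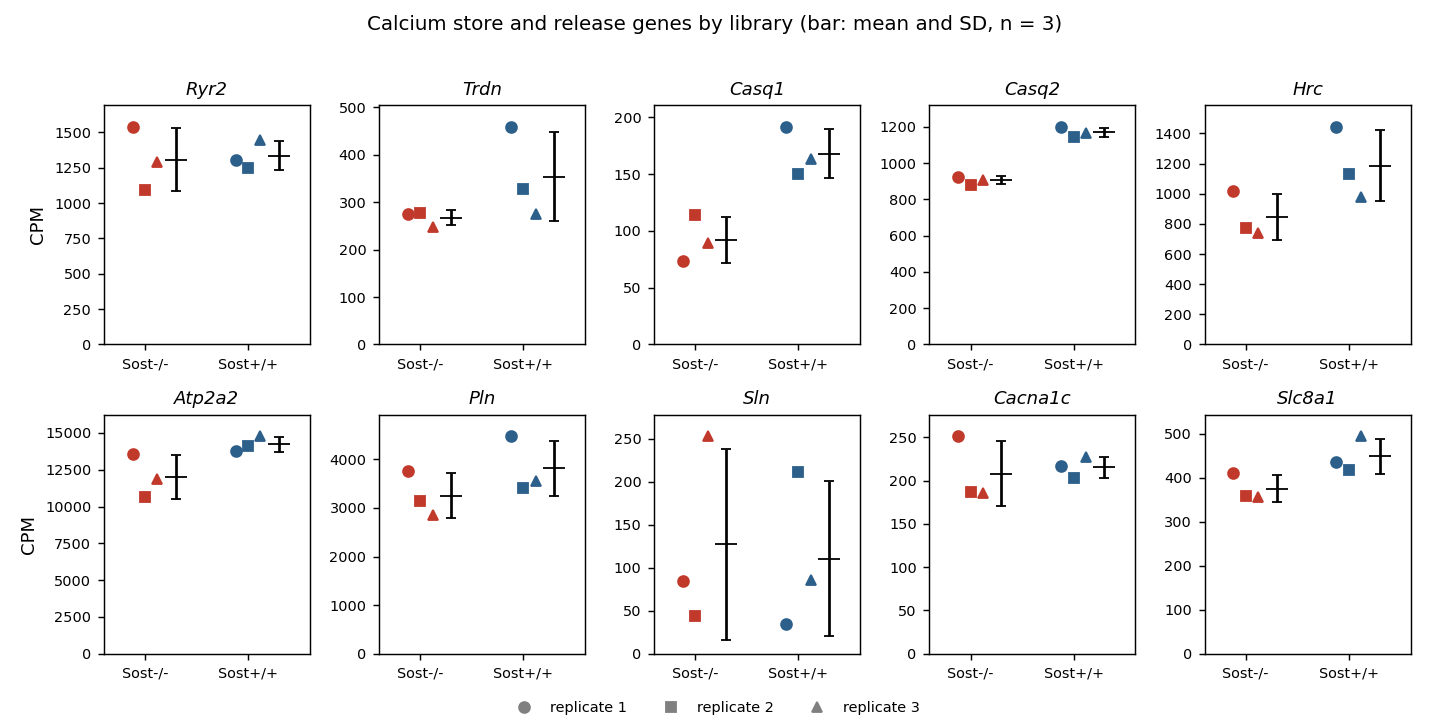
CPM of each of the 10 genes in each library (points, marked by replicate) with the mean and SD of 3 libraries beside them, libraries labelled Sost-/- left of those labelled Sost+/+, each axis starting at 0. Casq1, Casq2, Atp2a2 and Slc8a1 are separated by group, Ryr2, Trdn, Hrc, Pln and Cacna1c overlap, and Sln spreads from 34.9 to 253 CPM without regard to group.

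Among the store buffers, Casq1 encodes calsequestrin 1, the calcium-binding protein of the store that is best known from fast skeletal muscle. Its level was 73.3, 114 and 89.5 CPM in replicates 1, 2 and 3 labelled Sost-/-, against 191, 150 and 163 CPM in replicates 1, 2 and 3 labelled Sost+/+. Every library labelled Sost-/- lay below every library labelled Sost+/+. The means were 92.2 ± 20.4 and 168 ± 21.2 CPM (SD, n = 3 each), a log2 fold change of -0.87 (SE 0.16, edgeR adjusted p = 0.0296). The call was lost when replicate 3 labelled Sost-/- was left out (edgeR adjusted p = 0.134), and likewise without replicate 1 labelled Sost+/+ (0.129) or replicate 3 labelled Sost+/+ (0.0561), while the log2 fold change stayed between -1.05 and -0.73 over all alternatives. Of the skeletal muscle markers, the fast myosin genes Myh1, Myh2 and Myh4 did not exceed 0.382 CPM, and the troponin gene Tnnc2 did not exceed 0.336 CPM. Mylpf, Tnni2, Actn3 and Tnnt3 were at 0.381 to 2.27 CPM. Pvalb, the calcium-binding parvalbumin of fast fibres, was at 1.36, 13.8 and 2.005 CPM in libraries labelled Sost-/-, against 7.15, 9.11 and 7.19 CPM in those labelled Sost+/+, so the groups overlapped. Acta1, the skeletal actin gene that heart muscle also uses, was at 801 to 1707 CPM in libraries labelled Sost-/- and 765 to 1935 CPM in those labelled Sost+/+.

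Casq2, the calsequestrin of heart muscle, was the member that varied least within a group. Its level was 924, 881 and 908 CPM in libraries labelled Sost-/-, against 1198, 1145 and 1164 CPM in those labelled Sost+/+. The groups did not overlap, and the spread within each group was 2.42% and 2.28% of its mean (coefficient of variation). The log2 fold change of -0.37 (SE 0.10) missed the threshold in edgeR (adjusted p = 0.0877) and passed it in DESeq2 (adjusted p = 0.000315). Hrc encodes the histidine-rich calcium-binding protein of the store lumen. It measured 1017, 772 and 739 CPM in libraries labelled Sost-/- and 1441, 1134 and 979.6 CPM in those labelled Sost+/+. Here 1 library labelled Sost-/- lay above the lowest labelled Sost+/+. Its log2 fold change was -0.49 (SE 0.17, edgeR adjusted p = 0.165, DESeq2 adjusted p = 0.0368).

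The start regions of Casq1 and Casq2, which lay apart between the groups, and of Ryr2, which did not, are shown for comparison, from 250 bases before to 50 bases after the annotated start, 5′ to 3′ on the gene's strand (RefSeq, GRCm38.p6). Capitals mark each E-box, the letters CANNTG, which muscle-determining basic helix-loop-helix factors and many other factors of that family can bind. The windows are chr1:172219846-172220145 on the minus strand for Casq1, chr3:102086165-102086464 on the plus strand for Casq2 and chr13:12106896-12107195 on the minus strand for Ryr2.
Casq1: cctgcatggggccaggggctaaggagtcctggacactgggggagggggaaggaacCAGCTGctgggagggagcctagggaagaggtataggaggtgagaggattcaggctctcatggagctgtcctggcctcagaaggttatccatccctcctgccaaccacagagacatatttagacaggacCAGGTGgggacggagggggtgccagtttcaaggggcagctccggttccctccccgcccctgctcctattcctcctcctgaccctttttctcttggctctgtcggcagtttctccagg
Casq2: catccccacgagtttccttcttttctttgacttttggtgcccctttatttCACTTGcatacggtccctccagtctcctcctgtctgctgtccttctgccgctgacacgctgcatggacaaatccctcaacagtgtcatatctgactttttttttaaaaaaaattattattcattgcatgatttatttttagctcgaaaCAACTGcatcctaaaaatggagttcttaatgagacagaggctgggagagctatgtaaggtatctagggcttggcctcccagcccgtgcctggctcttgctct
Ryr2: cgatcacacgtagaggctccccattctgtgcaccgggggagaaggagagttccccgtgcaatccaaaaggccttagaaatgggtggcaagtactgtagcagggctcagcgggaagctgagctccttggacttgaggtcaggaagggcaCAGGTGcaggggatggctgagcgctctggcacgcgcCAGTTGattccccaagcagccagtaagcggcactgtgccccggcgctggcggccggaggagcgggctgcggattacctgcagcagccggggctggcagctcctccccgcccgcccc
Each of the 3 windows held 2 E-boxes, and 72.3% of 32851 windows of this length hold at least 1 (both strands, which read the same letters). A strict form of the MEF2 core, with C as its first letter and G as its last, was searched on both strands. This form was in none of the windows of the 7 members that have a window, and in 3.69% of all windows. Forms that begin with T or end with A were not searched. The Casq2 window holds a T-rich stretch of such a form, so the count does not show that MEF2 sites are absent. The GC box GGGCGG was in the windows of Casq1, with 1 match, and Ryr2, with 2, but not in that of Casq2, against 35.7% of all windows. The TATA box TATAAA was in none of these 3 windows, and in 13.6% of all windows. In these windows 0 matches of 1 motif overlapped a match of another. The windows of Casq1, Casq2 and Ryr2 had 60.3%, 44.7% and 65.3% G and C.

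The release channel itself did not separate by group. Ryr2 encodes the cardiac ryanodine receptor, through which calcium leaves the store. It was at 1536, 1095 and 1288 CPM in libraries labelled Sost-/- and 1303, 1251 and 1448 CPM in those labelled Sost+/+. The highest and the lowest library were both labelled Sost-/-. The log2 fold change of -0.03 (SE 0.14, edgeR adjusted p = 0.929) changed sign with single libraries left out, from -0.16 to 0.08. Trdn encodes triadin, which anchors calsequestrin to the release channel. It was at 274, 277 and 248 CPM in libraries labelled Sost-/-, against 458, 327 and 275 CPM in those labelled Sost+/+. Replicate 2 labelled Sost-/- lay just above replicate 3 labelled Sost+/+, so the groups touched, and replicate 1 labelled Sost+/+ stood above the rest. The log2 fold change was -0.41 (SE 0.17, edgeR adjusted p = 0.224) and -0.19 without that replicate.

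Atp2a2 encodes SERCA2, the pump that refills the store in heart and smooth muscle, and supplied more counts than the other 9 genes together. It made up 60.8% to 63.1% of the counts of the 10 genes in libraries labelled Sost-/- and 58.6% to 63.8% in those labelled Sost+/+. Its level was 13595, 10620.2 and 11844 CPM in libraries labelled Sost-/-, against 13788, 14127 and 14759.7 CPM in those labelled Sost+/+. The groups did not overlap, but replicate 1 labelled Sost-/- came close to the lowest library labelled Sost+/+. The log2 fold change was -0.24 (SE 0.14, edgeR adjusted p = 0.369). Pln encodes phospholamban, the peptide that slows the pump until it is phosphorylated. It was at 3768, 3134 and 2861 CPM in libraries labelled Sost-/- and 4470.5, 3418 and 3555 CPM in those labelled Sost+/+. The groups overlapped, and the log2 fold change was -0.23 (SE 0.16, edgeR adjusted p = 0.440). It was -0.35 without replicate 1 labelled Sost-/- and -0.11 without replicate 1 labelled Sost+/+.

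Sln encodes sarcolipin, a second small inhibitor of the pump, which in the mouse heart is a gene of the atria. It varied more within each group than between the groups. It was at 84.9, 43.7 and 253 CPM in replicates 1, 2 and 3 labelled Sost-/-, against 34.9, 211 and 86.2 CPM in replicates 1, 2 and 3 labelled Sost+/+. The highest library was 7.24 times the lowest, and the coefficient of variation was 87.1% in libraries labelled Sost-/- and 81.8% in those labelled Sost+/+. The log2 fold change of 0.20 (SE 0.69, edgeR adjusted p = 0.898) ran from -0.78 without replicate 3 labelled Sost-/- to 1.06 without replicate 2 labelled Sost+/+. Atrial markers moved with it. The summed level of Myl7, Myl4, Nppa, Mybphl and Dkk3 was 2352, 1950 and 5640 CPM in replicates 1, 2 and 3 labelled Sost-/-, and 1151, 4253 and 2425 CPM in those labelled Sost+/+. Sln came to 3.61%, 2.24% and 4.48% of that sum in libraries labelled Sost-/- and to 3.03%, 4.96% and 3.55% in those labelled Sost+/+. The order of the 6 libraries was the same for Sln and for the sum. None of these 5 markers passed edgeR's test, 1 had an unadjusted p under 0.05 and DESeq2 called Dkk3. Bmp10, the other gene of the atrial list, was at 0 in all libraries but 1.

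**Figure D2:**
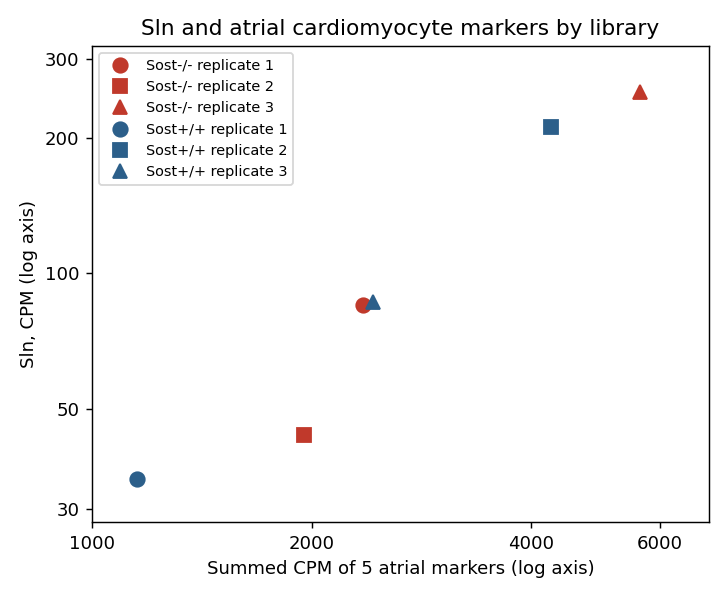
Sln in CPM (vertical log axis) against the summed CPM of 5 atrial cardiomyocyte markers (horizontal log axis), 1 point per library, colour by labelled genotype and shape by replicate. Replicate 3 labelled Sost-/- and replicate 2 labelled Sost+/+ are high on both axes, and replicate 1 labelled Sost+/+ is lowest on both.

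At the surface membrane, Cacna1c encodes the pore of the L-type calcium channel. It was at 251, 187 and 185 CPM in libraries labelled Sost-/- and 216, 203 and 227 CPM in those labelled Sost+/+. The groups overlapped, with a log2 fold change of -0.05 (SE 0.13, edgeR adjusted p = 0.855) that changed sign when replicate 2 or replicate 3 labelled Sost-/- was left out. Slc8a1 encodes the sodium-calcium exchanger NCX1, the main route by which calcium leaves a heart muscle cell. It was at 411, 358 and 357 CPM in libraries labelled Sost-/-, against 436, 417 and 494 CPM in those labelled Sost+/+. The groups did not overlap, yet the log2 fold change of -0.26 (SE 0.11) did not pass (edgeR adjusted p = 0.227).

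**Figure D3:**
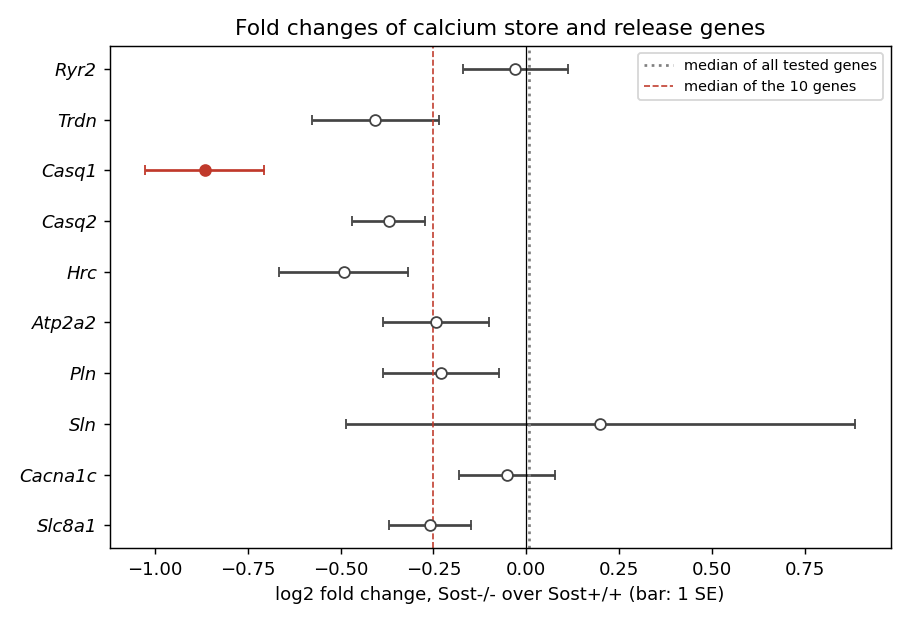
Log2 fold change of each gene, Sost-/- over Sost+/+ (points, bars of 1 SE), in the order of their roles. The filled point, Casq1 at -0.87, is the only call; the dashed line is the median of the 10 genes (-0.25) and the dotted line that of all tested genes (0.01).

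Levels can be compared between genes only per length, here as CPM per kilobase of the joined exons of GENCODE M21. On this scale, the 2 genes of the pump and its inhibitor led, with Atp2a2 at 1977 ± 246 and Pln at 1180 ± 169 in libraries labelled Sost-/- (SD, n = 3), against 2339 ± 81.1 and 1383 ± 207 in those labelled Sost+/+ (SD, n = 3). Casq2 and Hrc came next and could not be told apart from each other in either group, at 331 ± 8.00 and 328 ± 59.3 where labelled Sost-/- and 427 ± 9.76 and 462 ± 91.6 where labelled Sost+/+ (SD, n = 3). Sln, Casq1 and Ryr2 followed, each overlapping its neighbour in libraries labelled Sost-/-. Casq1 and Ryr2 were at 47.2 ± 10.5 and 45.4 ± 7.69 in libraries labelled Sost-/-, and at 86.1 ± 10.9 and 46.3 ± 3.54 in those labelled Sost+/+ (SD, n = 3). By the length of the joined exons, Casq1 thus lay above Ryr2 in every library labelled Sost+/+, while the libraries labelled Sost-/- overlapped. Trdn, Slc8a1 and Cacna1c had the lowest means, at 28.5, 20.0 and 9.80 where labelled Sost-/- and 37.8, 23.9 and 10.2 where labelled Sost+/+. In libraries labelled Sost+/+, Trdn ranged from 29.4 to 48.9 and overlapped Ryr2, at 43.5 to 50.3. With the longest coding transcript in place of the joined exons, the order in libraries labelled Sost-/- changed only among Ryr2, Trdn and Casq1, which took ranks 6, 7 and 8. By that length Casq1 lay below Ryr2 where labelled Sost-/-, at 39.7 to 61.6 against 65.1 to 91.4. Where labelled Sost+/+ their ranges overlapped, at 81.0 to 104 against 74.4 to 86.1, so which ranges overlapped depended on the length used. These ranges do not compare Casq1 with Ryr2 library by library. Since a gene's length is the same in every library, the difference between the groups does not depend on it.

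Ratios within a library do not depend on how libraries are scaled, and 8 were computed for pairs that work together. Only the ratio of the calsequestrins, Casq1 over Casq2, did not overlap between the groups. It was 0.111, 0.181 and 0.138 in replicates 1, 2 and 3 labelled Sost-/-, against 0.224, 0.183 and 0.197 in those labelled Sost+/+, a log2 difference of -0.51 (exact two-sided permutation p = 0.1, adjusted 0.8 over the 8 ratios). With 3 libraries against 3, 0.1 is the smallest p this test can give, so no ratio could pass. The groups nearly met in replicate 2 of each. The inhibitor-to-pump ratio, Pln over Atp2a2, averaged 0.598 ± 0.0601 in libraries labelled Sost-/- and 0.593 ± 0.105 in those labelled Sost+/+ (SD, n = 3 each). The exchanger-to-pump ratio, Slc8a1 over Atp2a2, averaged 0.0101 ± 0.000652 and 0.0102 ± 0.000638, and Cacna1c over Ryr2 averaged 0.216 ± 0.0188 and 0.220 ± 0.00632, in the same order of groups. These 3 ratios differed by 0.02, -0.01 and -0.02 on the log2 scale, less than their spread. Casq2 over Ryr2 was 6.33, 8.46 and 7.42 in replicates 1, 2 and 3 labelled Sost-/-, against 9.68, 9.63 and 8.46 where labelled Sost+/+. The groups met at 8.46, and the log2 difference was -0.33 (exact two-sided permutation p = 0.2). Trdn over Ryr2 differed by -0.33 (p = 0.3 by the same exact test), which was -0.12 without replicate 1 and -0.56 without replicate 3 labelled Sost+/+. Hrc over Casq2 differed by -0.12 and Sln over Atp2a2 by 0.44 (p = 0.6 each by that exact test). Groups overlapped in each of these 3.

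**Figure D4:**
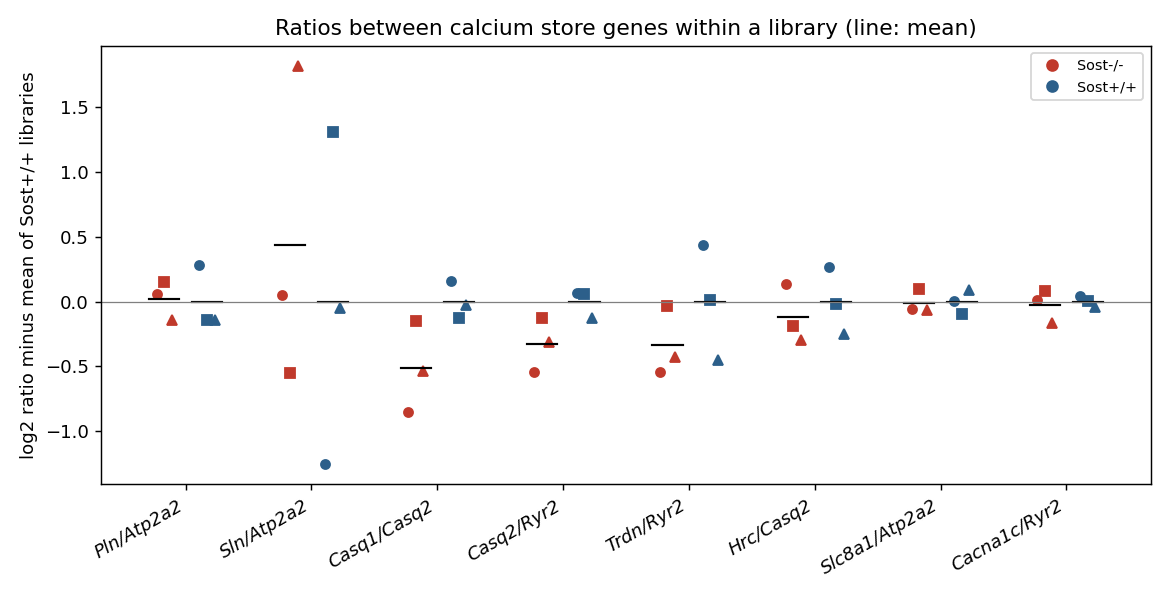
The 8 ratios of length-scaled levels within each library, as log2 minus the mean of the libraries labelled Sost+/+, with libraries labelled Sost-/- left of those labelled Sost+/+ and short lines for means. Casq1/Casq2 is the one ratio whose groups do not overlap (log2 difference -0.51), and Sln/Atp2a2 has the widest spread.

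Each gene was also set against the level of heart muscle markers, as its log2 CPM minus the mean log2 CPM of the 10 cardiomyocyte markers. Because those markers were lower where labelled Sost-/-, this difference was higher there for the median tested gene, by 0.45, and for the 10 calcium genes by a median of 0.19. Casq1 went the other way. It was at -5.75, -5.04 and -5.18 in replicates 1, 2 and 3 labelled Sost-/-, against -4.78, -4.99 and -4.89 in those labelled Sost+/+, a difference of -0.44 without overlap (exact two-sided permutation p = 0.1, adjusted 0.4 over the 10 genes). Without replicate 1 labelled Sost-/- the difference was -0.22. Of all tested genes, 0.238% were lower without overlap on this scale and 66.8% higher without overlap. Against the ventricular markers Myl2, Myl3, Irx4 and Myh7, the Casq1 difference was -0.33, and 1 library labelled Sost-/- lay within the range of those labelled Sost+/+. Against the atrial list it was -1.37, also with overlap. Cacna1c was higher without overlap on the cardiomyocyte scale, by 0.38, which is below the median gene's shift. Casq2, Trdn and Hrc differed by 0.07, 0.07 and -0.04, less than their spread, Atp2a2, Pln and Slc8a1 by 0.19, 0.22 and 0.19, Ryr2 by 0.40 and Sln by 0.63, all with overlap between the groups.

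Other genes of calcium handling, from a list of 75, moved in both directions. Of 70 tested, 3 rose and 1 fell, or 5.71%, with a median log2 fold change of 0.04. Over all tested genes, 2.55% were called, 2.18% higher and 0.371% lower, and the median was 0.01. Itpr3, a receptor for inositol trisphosphate that releases calcium from the store, was at 31.8, 27.4 and 29.5 CPM in libraries labelled Sost-/- and 18.7, 22.8 and 21.4 CPM in those labelled Sost+/+ (log2 fold change 0.50, SE 0.10, edgeR adjusted p = 0.0443). Cacnb3, an auxiliary subunit of voltage-gated calcium channels, was at 16.0, 19.0 and 21.7 CPM against 10.002, 11.4 and 12.8 CPM (0.73, SE 0.14, edgeR adjusted p = 0.0369). Atp2b4, a calcium pump of the surface membrane, was at 76.0, 57.1 and 75.1 CPM against 43.3, 49.0 and 45.9 CPM (0.59, SE 0.12, edgeR adjusted p = 0.0397). Rrad, a small GTP-binding protein that restrains the L-type channel, fell to 196, 219 and 173 CPM, against 255, 301 and 308 CPM (-0.55, SE 0.12, edgeR adjusted p = 0.0472). Each of the 4, picked by a test on these same values, was separated between the groups in all libraries. Such separation was found in 25 of the 70 tested list genes and in 25.4% of all tested genes. The calls of the list depended on single libraries. Without replicate 1 labelled Sost-/- edgeR called 2 of its genes, Cacnb3 and Jph2, and without replicate 2 labelled Sost-/- it called 1, Atp2b4. Without replicate 3 labelled Sost-/-, or without any 1 library labelled Sost+/+, it called 0, with 14 to 21 at an unadjusted p under 0.05. With the same libraries left out, 1714 to 3361 of all genes had such a p. On log2 of the deposited normalized values, limma called 3 of the 4, Atp2b4, Cacnb3 and Rrad, and not Itpr3.

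By role, the list gave 1 call among 16 tested release channels and partners, 0 among 16 regulators of the store pump, 0 among 6 buffers of the store lumen, 2 among 22 surface entry channels and regulators, and 1 among 10 genes of extrusion and mitochondrial uptake. Over all 15096 tested genes, edgeR called 2.55% and gave 3056 an unadjusted p under 0.05. DESeq2 called 7.61% of the genes it tested. Of the regulators of the store pump 4, and of the buffers 2, had an unadjusted p under 0.05, and DESeq2 called 1 gene of each. In these groups the smallest p belonged to Camk2g, a calmodulin-dependent kinase (log2 fold change 0.31, SE 0.08, edgeR adjusted p = 0.0794), and to Calr, the calcium-binding chaperone calreticulin (-0.34, SE 0.10, edgeR adjusted p = 0.1001). Calr was at 469, 496 and 524 CPM in libraries labelled Sost-/- and 645, 614 and 632 CPM in those labelled Sost+/+.

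Likeness of pattern was measured as Pearson's r of log2 CPM over the 6 libraries with each of 13506 other tested genes of at least 1 CPM on average, as a description. The 5 genes most like Casq1 were Dnajb11 (r = 0.99), Ncbp1 (0.99), Cox19 (0.99), Stip1 (0.98) and Arf2 (0.98). Each of them was lower in every library labelled Sost-/- than in any labelled Sost+/+, so that these values include the difference between the groups. Dnajb11, a chaperone gene of the endoplasmic reticulum, was at 75.6, 86.0 and 80.8 CPM in libraries labelled Sost-/-, against 110.2, 101 and 102 CPM in those labelled Sost+/+. The 5 genes most like Sln were Agt, Xrcc3, Nppa, Hamp and BC022687, with r from 0.98 to 0.996. Nppa, which encodes the atrial natriuretic peptide, was at 907, 569 and 2013 CPM in libraries labelled Sost-/- and 536, 1927 and 1036 CPM in those labelled Sost+/+. Further atrial markers stood at ranks 11 (Mybphl, r = 0.97), 20 (Myl7, r = 0.96), 112 (Myl4, r = 0.90) and 594 (Dkk3, r = 0.72) among those genes.

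Of the 10 genes, 4 have exons that share bases with annotated genes on the opposite strand (GRCm38, GENCODE M21). Casq1 lies on the minus strand of chromosome 1, from 172209894 to 172219868, and shares 156 exonic bases with the antisense gene Gm17224. Pln lies on the plus strand of chromosome 10, from 53337667 to 53345987, and shares 1644 with Gm47644 and 141 with Cep85l. Slc8a1 shares 296 with an antisense gene and 8 with Gm11096, and Atp2a2 shares 83 with Gm43361. The strand setting of the counting is not given in the sources used here, so reads from these stretches may not be told apart.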

How the data were processed

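RNA sequencing of 6 aortic roots was analysed from the deposited table of counts, with whole-number read counts per gene symbol. DRAGEN, HTSeq and DESeq2, with the build mm10, are named in the submitters' processing notes. Neither versions, nor the gene annotation, nor the use of strand in counting is given there. In the deposited normalized signal, each count had been divided by its library's factor, and the factors were the same as the size factors that DESeq2 computed here.

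Groups follow the genotype label. Replicate numbers follow accession order and pair nothing. Since no label ties roots to animals, p-values cover only the spread between these samples, which may be technical. Genes were filtered with filterByExpr (minimum count 10, minimum total 15), scaled by TMM and tested in edgeR 4.0.16 (R 4.3.3) with all 6 libraries and no covariate. The SE is the absolute log2 fold change over the square root of F. Log2 CPM used a prior count of 2. Alternatives were DESeq2 1.42.0, limma 3.58.1 (voom, and log2 of the normalized signal with a pseudocount of 1), other scaling, no filter, and each library left out. No 2 libraries of a group were alike within sampling noise (chi-square per degree of freedom 33.9 to 64.0). The fit was also run on simulated counts in which every gene had the same dispersion, the spread between replicates beyond sampling noise. Such counts do not test the dependence on single libraries.

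The members, gene lists and tests were chosen with earlier results of these data known. Named genes are the 10 members, Sost, calcium list genes that passed or had the smallest p of their role, abundant markers and, for Casq1 and Sln, the 5 genes most alike. Skeletal and atrial markers beyond that rule, Csrp3 and the DESeq2 calls were named after their values were seen. Of the 75 list genes, 71 were in the table, 3 of these by an older symbol in RefSeq. Promoter windows were found for 7 of the 10 members. Of the other marker lists, the ventricular, atrial, skeletal muscle, fibroblast, endothelial, macrophage, Schwann, white adipocyte and erythroid lists gave 0 calls each in edgeR, with 0 to 4 genes each at an unadjusted p under 0.05, and 0 to 3 each in DESeq2.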

Additional observations from a re-analysis of the deposited data

How the results depend on the processing

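The log2 fold changes of Casq1, Casq2, Hrc, Trdn, Atp2a2, Pln and Slc8a1 kept their negative sign under each of the 12 alternatives run. DESeq2 called 1158 genes (753 higher, 405 lower) against 385 by edgeR (329 higher, 56 lower), 3 members against 1, and 10 genes of the calcium list against 4. The cause was not tested. With 1 library left out, edgeR called 0 to 349 genes, 0 to 1 members and 0 to 2 genes of the calcium list. With 0 genes called, without replicate 1 labelled Sost+/+, 2262 had an unadjusted p under 0.05. Log2 fold changes that changed sign with a library left out ran from -0.16 to 0.082 for Ryr2, from -0.21 to 0.023 for Cacna1c and from -0.78 to 1.06 for Sln. No paired analysis was possible because the labels give no replicate numbers that groups share.

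The number of ratios without overlap was 1 to 3 with a library left out. Ratio differences that changed sign ran from -0.051 to 0.16 for Pln/Atp2a2, from -0.25 to 1.09 for Sln/Atp2a2, from -0.25 to 0.015 for Hrc/Casq2, from -0.061 to 0.035 for Slc8a1/Atp2a2 and from -0.077 to 0.047 for Cacna1c/Ryr2. The number of members without overlap relative to cardiomyocyte markers was 2 to 6 with a library left out, where 68.3% to 79.4% of all tested genes did not overlap, and 0 against the atrial list, where 0.517% did not. Differences on that scale that changed sign with a library left out ran from -0.13 to 1.31 for Sln, from -0.0089 to 0.12 for Casq2, from -0.078 to 0.23 for Trdn and from -0.16 to 0.062 for Hrc. Against the atrial list the differences were negative: Ryr2 -0.53, Atp2a2 -0.74, Pln -0.72, Sln -0.30, Casq2 -0.86, Cacna1c -0.55, Slc8a1 -0.75, Trdn -0.86, Casq1 -1.37 and Hrc -0.98. With a library left out, differences on the cardiomyocyte scale that kept their sign ran from -0.58 to -0.22 for Casq1, from 0.12 to 0.30 for Atp2a2 and from 0.12 to 0.27 for Slc8a1. Those of Ryr2, from 0.33 to 0.54, Pln, from 0.17 to 0.29, and Cacna1c, from 0.29 to 0.47, kept theirs as well. Against the ventricular list Hrc was at 0.067. The lowest count among the 10 genes was 1556.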
